A study of Mus musculus with 8 samples.

Results

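Small nucleolar RNAs (snoRNAs), small Cajal body RNAs (scaRNAs) and the long non-coding genes that host them were examined in leukemic cells exposed to AG636, an inhibitor of the pyrimidine synthesis enzyme DHODH. Members were all genes of the count table whose symbol begins with Snord, Snora, Scarna or Snhg, together with Gas5, if they held at least 10 raw counts summed over the 8 samples. Members were thus selected on their summed counts, and the number that passed this minimum is not a finding. Such a symbol was carried by 166 of 54838 genes, and 52 of these were members. They were 25 of 99 box C/D snoRNAs, 11 of 42 box H/ACA snoRNAs, 3 of 9 scaRNAs and 13 of 16 host genes (12 Snhg genes and Gas5). The members nearest to the minimum were Snord17 with 12 counts and Snord59a and Snord32a with 14 counts each, and just below it were Snord66 and Snord8 with 9 counts each.

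The cells were acute myeloid leukemia (AML) cells of C57BL/6 background that express RUNX1-RUNX1T1, the core-binding factor fusion also called AML1-ETO, and every sample carried this fusion. They had been transplanted into congenic Ptprca mice, which per the labels were irradiated at a sublethal dose beforehand although the methods of the study name irradiation only for its other models, and were recovered by cell sorting from bone marrow and spleen, without a statement of which sample came from which organ. Per the study the sort took immature cKit-high cells with little or no CD11b. The 4 Vehicle samples came from mice given the carrier alone and the 4 AG636 samples from mice given AG636 by oral gavage at 100 mg/kg b.i.d., for a single day per the study. The age of the mice was not given. The transplanted cells came from established tumors of this model, and whether all samples go back to 1 primary tumor was not stated. Nothing in the labels says that the samples of a group are separate mice, and the study names fewer mice per group than the 4 samples used here, so that the p-values below measure the spread between samples, which may in part be technical.

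Box C/D snoRNAs carry the C and D motifs, bind fibrillarin with Nop56, Nop58 and Snu13, and guide 2′-O-methylation of ribosomal RNA. Box H/ACA snoRNAs bind dyskerin (Dkc1) with Gar1, Nhp2 and Nop10 and guide pseudouridylation, while scaRNAs direct the same modifications of spliceosomal RNAs in Cajal bodies. Most mammalian snoRNAs are cut out of introns of ribosomal protein genes, other genes of the translation machinery, or Snhg genes and Gas5, whose spliced exons have little coding capacity and are rapidly degraded when translated. A few, among them U13 (Snord13) and U8 (Snord118), are instead made from promoters of their own and receive a trimethylguanosine cap.

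By annotation 6 of the 39 small RNA members lay in no other gene of their own strand. These were Snord13, Snord104, Snora57, Snord118, Scarna17 and Scarna2, and Snora57 lay within Lbhd1 on the opposite strand. The other 33 lay inside a gene of their own strand. The position says only that no annotated host transcript spans the small RNA, and it does not show which promoter is used. The sequences of 4 of the 6 are given because the small RNAs called below, and others of the same setting that were not called, fall in this set. They were read from GENCODE release M21 transcripts, whose spans are those of the count table (GRCm38, mm10), and capitals mark the first TGATGA (C motif) and the last CTGA (D motif) or, for Snora57, the ACA that ends 3 bases before the 3′ end. Snord118 is at chr11:69073427-69073561 (plus strand), Scarna2 at chr3:108554338-108554751 (minus strand, 414 bases, of which the last 94 are shown), Snord104 at chr11:106500993-106501062 (plus strand) and Snora57 at chr19:8888538-8888685 (minus strand).
Snord118: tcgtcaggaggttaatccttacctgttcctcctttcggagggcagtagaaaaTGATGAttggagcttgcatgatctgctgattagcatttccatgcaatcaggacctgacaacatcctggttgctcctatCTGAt
Scarna2, last 94 bases: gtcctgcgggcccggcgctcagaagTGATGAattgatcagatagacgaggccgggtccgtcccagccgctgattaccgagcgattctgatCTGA
Snord104: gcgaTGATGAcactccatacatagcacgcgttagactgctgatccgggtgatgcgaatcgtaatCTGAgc
Snora57: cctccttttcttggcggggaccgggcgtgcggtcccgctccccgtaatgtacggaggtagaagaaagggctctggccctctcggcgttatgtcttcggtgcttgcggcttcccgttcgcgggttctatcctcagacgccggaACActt

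The motifs followed the class names. TGATGA, searched on the transcript strand only, was present in 75.8% of the 99 box C/D rows, in none of the 42 box H/ACA rows and in 66.7% of the 9 scaRNA rows, and in 22 of the 25 box C/D members. The short CTGA occurred in all box C/D rows but also in 54.8% of box H/ACA rows. ACA at 3 bases from the 3′ end was found in 83.3% of box H/ACA rows, in no box C/D row and in all 11 box H/ACA members. The libraries were primed on poly-A, and the longest run of A within the sequence was 3 bases in Snord13, 4 in Snord118 and Scarna2 and 2 in Snord104, against 2 to 8 bases over the 25 box C/D members. Sequence downstream of the small RNAs was not examined, and which molecules of RNAs that usually lack a poly-A tail these counts represent was not tested. Snord13, Snord104 and Scarna2 shared no stretch of 31 bases with any other annotated transcript. Snord118 shared one with Gm24208 and Scarna17 with Gm25443, both at 0 counts, and Snora57 with Gm26132, which had 57 counts, so that reads of these 3 could have been divided by the counting.

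The samples held 6120030 to 7162036 counts, so that 3 counts correspond to 0.419 to 0.490 CPM, the counts per 1000000 counts of a sample. All levels below are CPM scaled by TMM factors, and intervals on single counts cover counting error only. Small RNA members together took 0.0139 to 0.0176% of the counts in Vehicle samples and 0.0246 to 0.0361% in AG636 samples, and host genes 0.212 to 0.227% and 0.130 to 0.249%. Progenitor markers (Kit, Myb, Cd34, Mpo, Flt3, Runx1t1) summed to 571 to 708 CPM in Vehicle and 649 to 954 CPM in AG636 samples with 0 of 5 tested called by limma-voom, edgeR or DESeq2 (3 higher at an unadjusted p under 0.05), and mature myeloid markers to 43.8 to 103 and 14.8 to 204 CPM with 0 of 5 called by any of the 3 tools or at that unadjusted p, while Itgam, Ly6g and Cxcr2 were too low to test. Of 6 B cell markers 4 were tested and Cd79a was called higher (log2 fold change 1.83 ± 0.47 SE, adjusted p = 0.0266, limma-voom), the list summing to 13.4 to 33.9 CPM in Vehicle and 21.4 to 104 CPM in AG636 samples. Cd79a averaged 0.609 CPM in Vehicle and 2.14 CPM in AG636 samples. It thus passed the filter on low counts only with the help of its AG636 counts, and its direction is no independent result. For this list edgeR called 1 gene higher and DESeq2 0. Of 6 erythroid markers Hbb-bt was called higher (0.90 ± 0.22, adjusted p = 0.0238, limma-voom), with sums of 2229 to 6056 and 4667 to 6159 CPM, and T and NK cell markers summed to at most 9.44 and 19.8 CPM with 0 of 1 called. The part of these cells in the results below was not tested, and in bulk samples fewer cells of a type cannot be told apart from less RNA per cell.

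To ask how AG636 altered these genes, AG636 was compared with Vehicle in 1 limma-voom fit of all genes, with p-values adjusted over all 10911 genes tested and a threshold of 0.05. Of 6 small RNAs outside annotated host genes 3 rose after AG636, none of the intronic small RNAs passed the test, and of the host genes 1 fell. Of the 52 members 27 passed the filter on low counts, and 4 of these were called, 3 higher (Snord13, Scarna17 and Scarna2) and 1 lower (Snhg1). Scarna17 and Scarna2 passed that filter only with the help of their AG636 counts. Over all genes tested 14.0% were called, 5.47% higher and 8.49% lower, so that the share of members called was close to the background. Among the 27 tested members groups did not overlap for 4 that were higher in AG636 and 1 that was lower, against 9.35% and 12.9% of all genes. The median log2 fold change was -0.16 over the 27 members and -0.0056 over all genes. With the minimum of 10 counts fixed on the sum of all samples, the 25 members that were not tested held 12 to 96 counts each.

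**Figure D1:**
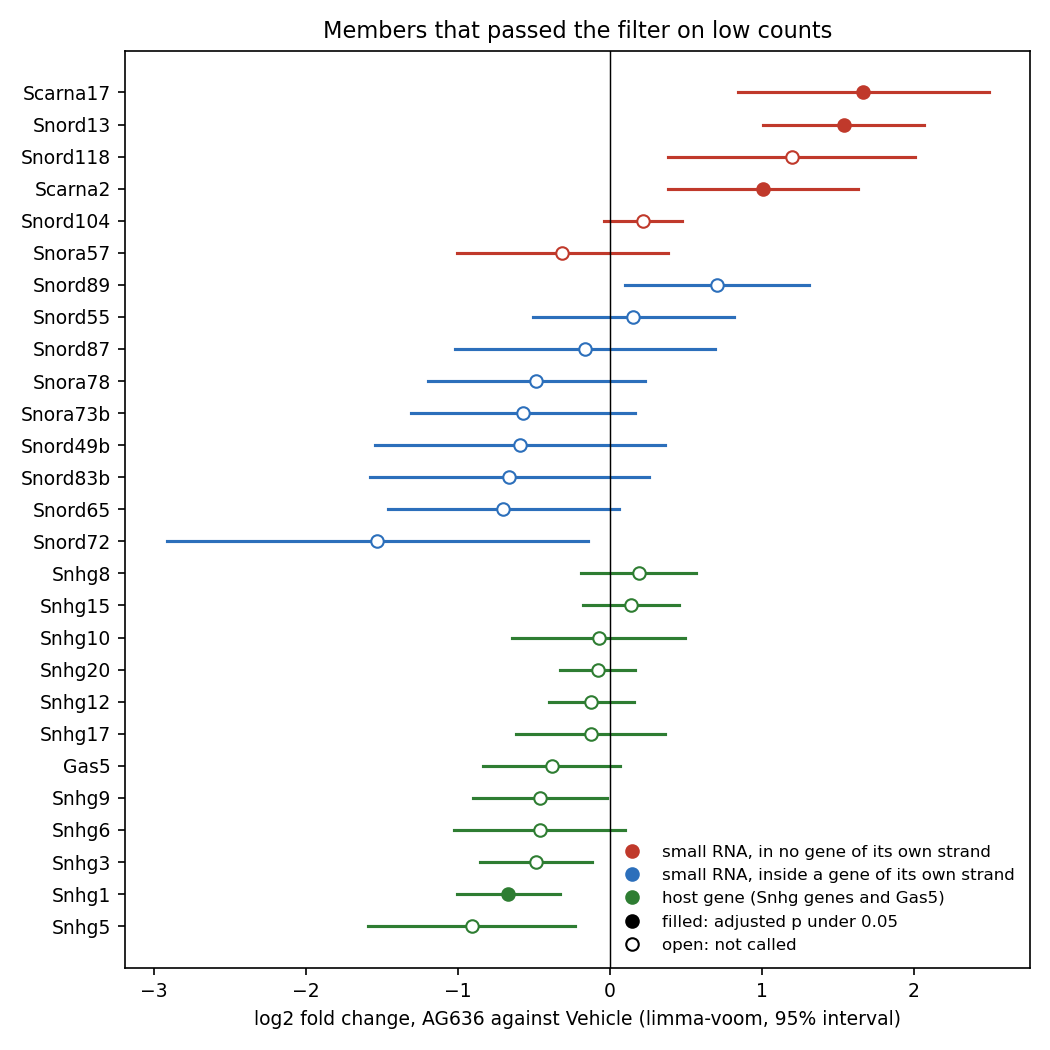
Log2 fold change of AG636 against Vehicle (horizontal axis, limma-voom, lines give the 95% interval) for the 27 members that passed the filter on low counts, colored by setting, with filled points for an adjusted p under 0.05. The 3 members called higher are all small RNAs in no gene of their own strand, the 9 intronic small RNAs are all uncalled, and 10 of the 12 host genes lie below 0.

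Snord13, the U13 RNA that directs acetylation of 18S ribosomal RNA, had the highest count of the small RNA members, with 4915 counts in all. Its level was 61.6, 49.2, 49.8 and 31.6 CPM in Vehicle samples 1 to 4 and 158, 105, 198 and 105 CPM in AG636 samples 1 to 4. The lowest AG636 sample was well above the highest Vehicle sample, and the highest values were in AG636 samples 3 and 1. Snord13 rose 2.91-fold (log2 fold change 1.54 ± 0.24 SE, adjusted p = 0.00411, limma-voom). It was called under all 20 alternative settings in which it was tested, with log2 fold changes of 1.20 to 1.68. Of the AG636 samples, sample 3 had the highest Snord13 level and the lowest sum of B cell markers (21.4 CPM), while sample 1 had the highest sum (104 CPM). Sample 3 also had the highest sum of T and NK cell markers, 19.8 CPM against 6.84, 3.83 and 9.97 CPM in samples 1, 2 and 4. The part of these cells in the level of Snord13 was not tested.

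Snord118, the U8 RNA required for maturation of 5.8S and 28S ribosomal RNA, was at 7.43, 7.07, 8.05 and 3.80 CPM in Vehicle samples and at 18.7, 13.1, 23.8 and 8.24 CPM in AG636 samples. The groups did not overlap, but AG636 sample 4 (57 counts, 95% exact Poisson interval 6.24 to 10.7 CPM) and Vehicle sample 3 (52 counts, 6.01 to 10.6 CPM) could not be distinguished by their counts. The log2 fold change of 1.20 ± 0.37 narrowly missed the threshold in limma-voom (adjusted p = 0.0535) and passed it in edgeR's quasi-likelihood test (adjusted p = 0.0273) and in DESeq2 (adjusted p = 0.00190). It passed in 9 of 20 alternatives, over which the adjusted p in these tools ran from 0.00190 to 0.126.

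The 2 scaRNAs that could be tested both rose. Both held the filter's minimum count of 10 in every AG636 sample but not in every Vehicle sample. Scarna17 had 7 counts in Vehicle sample 2 and Scarna2 had 9 in Vehicle sample 3. That they were tested at all thus depended on the group in which they were high, and their direction is no independent result. Scarna17 was at 3.06, 1.08, 3.40 and 1.52 CPM in Vehicle samples and at 7.46, 7.66, 7.98 and 4.48 CPM in AG636 samples, without overlap. This was a 3.18-fold rise (log2 fold change 1.67 ± 0.37 SE, adjusted p = 0.0160, limma-voom), and the call was lost without Vehicle sample 2 (1.38, adjusted p = 0.0518). Scarna2, which like Scarna17 lies outside any gene of its own strand, was at 1.46, 2.0, 1.39 and 1.67 CPM in Vehicle samples and at 3.42, 4.31, 2.87 and 2.89 CPM in AG636 samples. These levels rest on 9 to 13 counts per Vehicle sample and 18 to 27 counts per AG636 sample, and all AG636 samples were above all Vehicle samples. Scarna2 rose 2.01-fold (log2 fold change 1.01 ± 0.28 SE, adjusted p = 0.0388, limma-voom). Its call was the least stable of the 4, since it was lost when any 1 of Vehicle samples 1 to 4 or AG636 samples 1 and 2 was left out (adjusted p = 0.0736 to 0.122, limma-voom) and also without the filter on low counts (adjusted p = 0.115). Scarna9, which lies in an intron of Cep295, held 56 counts and was not tested, with mean levels of 1.03 and 1.11 CPM.

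Not every small RNA outside an annotated host gene changed. Snord104, a box C/D RNA, was at 42.5, 34.4, 42.4 and 38.6 CPM in Vehicle samples and at 45.3, 51.6, 48.5 and 39.0 CPM in AG636 samples. The groups overlapped and the difference did not pass the test (log2 fold change 0.22 ± 0.12 SE, 95% interval -0.041 to 0.47, adjusted p = 0.236). Its interval therefore ends below the lower bound for Snord13, which was 1.01. Snora57, the only box H/ACA RNA of the 6, was at 16.2, 13.4, 8.82 and 10.3 CPM in Vehicle samples and at 4.67, 13.1, 11.6 and 11.7 CPM in AG636 samples. AG636 sample 1 was by far the lowest of the 8 and the other AG636 samples lay within the Vehicle range (log2 fold change -0.31 ± 0.32 SE, adjusted p = 0.545), and without that sample the value was 0.025. Over all 6 the median log2 fold change was 1.10, with 3 called higher and 0 lower, where 5.47% of all genes were called higher. Among the 3, Scarna17 and Scarna2 passed the filter only with the help of their AG636 counts. The count of 3 was 1 without Vehicle sample 2, 2 without Vehicle sample 1, 3 or 4 or AG636 sample 1 or 2, and 4 without AG636 sample 4.

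**Figure D2:**
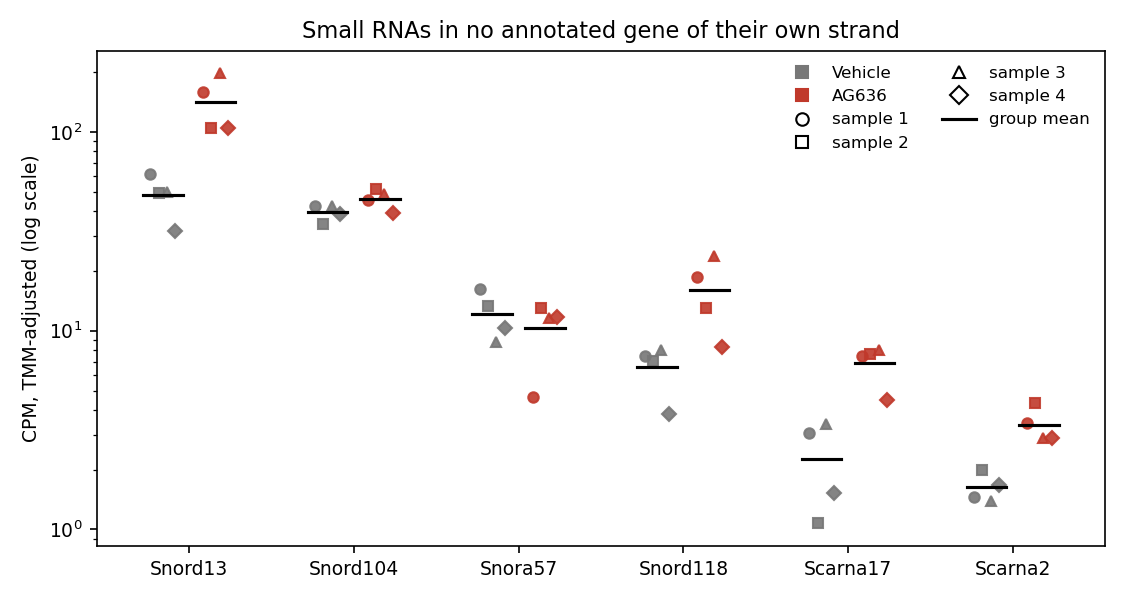
CPM after TMM scaling (vertical log axis) in each of the 4 Vehicle (gray) and 4 AG636 (red) samples for the 6 small RNA members that lie in no gene of their own strand, with a marker shape per sample number and a line at the group mean. Samples of the groups do not overlap for Snord13, Snord118, Scarna17 and Scarna2, and overlap for Snord104 and Snora57.

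Snord13 accounted for most of the rise in summed signal. All box C/D members summed to 135 ± 16.3 CPM in Vehicle and 250 ± 50.1 CPM in AG636 samples (SD, n = 4 each), and to 87.3 ± 5.25 and 109 ± 12.5 CPM without Snord13. Box H/ACA members summed to 24.7 ± 4.20 and 22.4 ± 6.88 CPM, a difference within the spread between samples, and scaRNAs to 4.92 ± 1.32 and 11.4 ± 1.89 CPM. By position, the 6 small RNAs in no gene of their own strand summed to 110 ± 18.4 and 224 ± 53.2 CPM, and the 33 intronic ones to 54.7 ± 3.65 and 60.0 ± 10.1 CPM. No test was run on these sums, since the members were chosen with earlier results known.

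Small RNAs of the RNA polymerase III or spliceosomal type, which are made from promoters of their own, were examined as a further list. Of its 5 tested genes 0 were called by limma-voom, edgeR or DESeq2, and 0 had an unadjusted p under 0.05. Rnu11, the U11 RNA of the minor spliceosome, averaged 39.7 CPM in Vehicle and 46.9 CPM in AG636 samples (log2 fold change 0.20 ± 0.18 SE, adjusted p = 0.509). The Y RNA Rny1 was at 2.22 and 3.36 CPM (0.75 ± 0.46, adjusted p = 0.295) and Rny3 at 6.25 and 4.88 CPM (-0.38 ± 0.28, adjusted p = 0.386). Vaultrc5 was at 2.26 and 2.78 CPM (0.45 ± 0.39, adjusted p = 0.477, limma-voom).

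None of the 33 intronic small RNAs was called by limma-voom, edgeR or DESeq2, but 24 of them did not pass the filter on low counts and were not tested. Snora30, named here after its values were seen, had the most counts of these 24, 96 in all. It held 0, 7, 6 and 5 counts in Vehicle samples 1 to 4 and 4, 11, 26 and 37 counts in AG636 samples 1 to 4. Without the filter 0 of the 33 were called by limma-voom. At an unadjusted p under 0.05 in limma-voom there was 1 higher (Snord89) and 1 lower (Snord72). Of the 9 tested 7 had a log2 fold change below 0, with a median of -0.57 and a range of -1.53 to 0.71. The lowest of these values was that of Snord72, which passed the filter only with the help of its Vehicle counts. Without the filter on low counts 16 of the 33 were below 0, so no common direction of the intronic RNAs was seen. Snord89 had the highest counts among the intronic RNAs, 1035 in all, against 104 counts for its annotated host Gm15832. Whether Snord89 is made from Gm15832 was not tested. Snord89 was at 12.4, 24.0, 14.2 and 10.5 CPM in Vehicle samples and at 15.4, 31, 23.5 and 27.9 CPM in AG636 samples, with overlap between groups (log2 fold change 0.71 ± 0.27 SE, adjusted p = 0.109). It passed the threshold in 1 alternative, when AG636 sample 1 was left out.

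The intronic box H/ACA RNAs with the most counts were Snora73b and Snora78. Snora73b, a copy of the U17 RNA that is needed for 18S processing rather than for modification, was at 4.81, 2.77, 3.87 and 5.63 CPM in Vehicle samples and at 1.56, 3.19, 3.03 and 3.76 CPM in AG636 samples (log2 fold change -0.57 ± 0.33 SE, adjusted p = 0.274). Snora78 was at 4.81, 4.0, 2.32 and 2.28 CPM in Vehicle samples and at 1.87, 2.23, 2.71 and 2.31 CPM in AG636 samples (-0.48 ± 0.32, adjusted p = 0.343). The groups overlapped for both, and no box H/ACA member had an unadjusted p under 0.05 or was called by edgeR or DESeq2. Snora73b shares stretches of 31 bases with 6 other annotated genes, among them its own host Snhg3, Snora73a and Gm26448, and its counts are uncertain for that reason.

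The lowest fold changes of intronic RNAs, named here after their values were seen, were those of Snord72 in Rpl37 and Snord65 in 2410006H16Rik. Snord72 held the filter's minimum count of 10 in every Vehicle sample but had 1 count in AG636 sample 3 and 4 counts in AG636 sample 4. That it was tested thus depended on the group in which it was high, and its direction is no independent result. Snord72 was at 2.33, 3.53, 2.79 and 3.19 CPM in Vehicle samples and at 3.42, 2.08, 0.16 and 0.58 CPM in AG636 samples. AG636 sample 1 was above most Vehicle samples while samples 3 and 4 were the lowest of the 8, and the difference did not pass the test (log2 fold change -1.53 ± 0.63 SE, adjusted p = 0.128). The size of the Snord72 value was not stable, at -0.85 without AG636 sample 3, -2.11 without AG636 sample 1, -0.92 in edgeR and -0.91 in DESeq2. Snord65 was at 5.68, 4.92, 6.50 and 7.0 CPM in Vehicle samples and at 5.44, 4.63, 4.63 and 1.59 CPM in AG636 samples (-0.70 ± 0.35, adjusted p = 0.197). Both sequences are given since they mark the lower end of the intronic set, Snord72 from chr15:5118404-5118484 and Snord65 from chr11:62604515-62604586, both on the plus strand. Snord72 has no exact TGATGA, and its longest run of A is 6 bases.
Snord72: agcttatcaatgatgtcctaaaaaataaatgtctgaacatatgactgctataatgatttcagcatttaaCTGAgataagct
Snord65: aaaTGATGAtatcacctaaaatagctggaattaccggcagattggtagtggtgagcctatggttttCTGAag

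Where an intronic RNA and its host both passed the filter, the log2 ratio of the small RNA to its host was compared between groups with an exact permutation test (two-sided, all 70 relabellings of the samples), which cannot give a p-value under 0.0286. There were 10 such pairs, and 0 passed the threshold after adjustment over them, with 1 at an unadjusted p under 0.05. After adjustment a pair could pass only if most of the 10 reached the smallest p. The lack of passing pairs therefore does not show that the ratios were unchanged. Differences in log2 ratio ranged from -1.16 for Snord72 to Rpl37 to 0.38 for Snord89 to Gm15832, 4 above and 6 below 0. Snord72 was tested only with the help of its Vehicle counts. The ratio of Snord65 to 2410006H16Rik was -5.33, -5.52, -5.10 and -4.58 in Vehicle samples and -5.59, -6.41, -5.80 and -6.60 in AG636 samples, so that the groups did not overlap. The difference was -0.96 (exact permutation p = 0.0286, the smallest the test can give, and adjusted p = 0.286), with the host itself at a log2 fold change of 0.33 ± 0.21 SE. For 2 of the 3 pairs in Snhg hosts the ratio differed little between groups, -0.051 for Snora73b to Snhg3 and 0.0094 for Snora78 to Snhg9, with SDs of 0.28 to 0.73 within groups. Snora73b and Snhg3 share sequence, so that their ratio is uncertain.

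**Figure D3:**
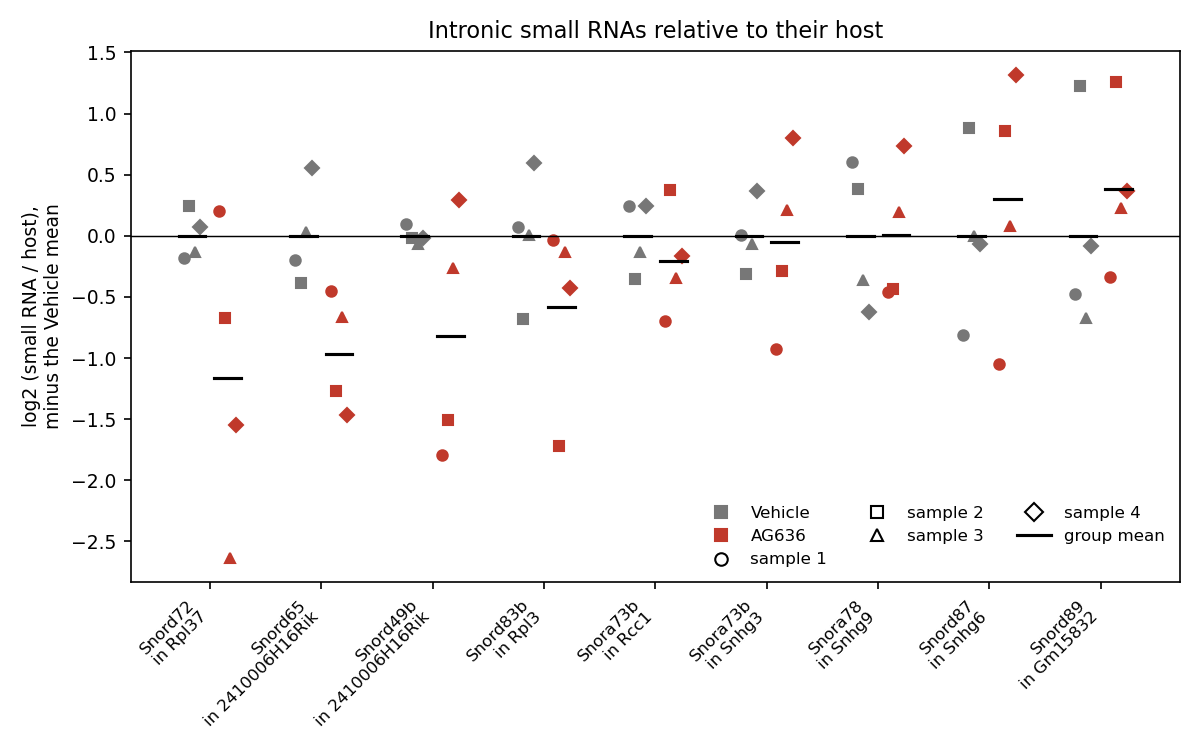
Log2 ratio of each intronic small RNA to its host gene, with the mean of the 4 Vehicle samples subtracted (vertical axis), in Vehicle (gray) and AG636 (red) samples for 9 of the pairs in which both genes were tested, with lines at group means. The groups separate for Snord65 in 2410006H16Rik alone, and AG636 samples are spread most widely for Snord72 in Rpl37.

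The genes that hold member small RNAs on their own strand, 32 in all and 26 of them protein coding, included several that fell. Of 31 tested 8 were called lower and 0 higher (8 and 0 by edgeR, 9 and 1 by DESeq2, and 11 and 1 at an unadjusted p under 0.05 in limma-voom), with a median log2 fold change of -0.23, against 8.49% of all genes called lower. The 8 were Ncl, Ipo7, Nop58, Nop56, Wdr43, Tcp1, Rpl13a and Eif3a. Nucleolin (Ncl), which holds Snord82, had the greatest difference, from 2050, 2141, 2024 and 2173 CPM in Vehicle samples to 1101, 1241, 1191 and 1296 CPM in AG636 samples (log2 fold change -0.80 ± 0.08 SE, adjusted p = 0.00106, limma-voom). Nop58, which holds Snord11 and encodes a core box C/D protein, fell by 0.66 on the log2 scale (SE 0.10, adjusted p = 0.00438, limma-voom). The small RNAs inside the 8 genes had too few counts to be tested. The ribosomal protein genes Rpl3 (log2 fold change 0.0050 ± 0.12 SE) and Rpl37 (-0.063 ± 0.12), which hold tested snoRNAs, were not called.

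The Snhg genes and Gas5 carried far more counts than the small RNAs inside them. Of 13 host members 11 held at least 1 small RNA of the named families, 36 in all, of which 3 were members (Snora73b, Snora78 and Snord87). The 36 had 482 counts together and the 13 host genes 107338 counts. The 4 small RNAs of the named families inside Gas5 (Snord47, Snord78 and a pair of Snord80 entries), Snord22 inside Snhg1 and Snora24 inside Snhg8 had 0 counts. Small genes with other symbols, such as Gm26224 in Gas5 and Gm25855 in Snhg1, are also annotated there and are not part of these numbers. These small RNAs at 0 counts in Gas5, Snhg1 and Snhg8 all overlap an annotated exon of their host, whereas Snora73b, Snora78 and Snord87 do not. Over the whole table, rows with such overlap were mostly at 0 counts. Of 150 small RNA rows 73 overlapped an exon of another gene on the same strand, and of these 67 had 0 counts and 1 was a member, while of the 77 without such overlap 24 had 0 counts and 38 were members. How reads shared by 2 genes were treated was not stated, so a snoRNA at 0 counts here is not shown to be absent.

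Among host genes Snhg1 fell, and the others did not pass the test. Snhg1, also known as UHG, was at 301, 300, 312 and 353 CPM in Vehicle samples and at 236, 253, 177 and 149 CPM in AG636 samples. All AG636 samples were below all Vehicle samples, with samples 3 and 4 lowest. The fold was 0.63 (log2 fold change -0.67 ± 0.15 SE, adjusted p = 0.0180, limma-voom), and the call was lost without Vehicle sample 3 (adjusted p = 0.0532) or Vehicle sample 4 (adjusted p = 0.0548).

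Gas5, named for its accumulation in growth-arrested cells, was at 1087, 1103, 1129 and 979 CPM in Vehicle samples and at 803, 1300, 796 and 550 CPM in AG636 samples. Vehicle samples were close together, while AG636 samples ranged from the lowest to the highest value of the 8. The difference did not pass the test (log2 fold change -0.38 ± 0.20 SE, 95% interval -0.83 to 0.067, adjusted p = 0.231). AG636 sample 2 decided this result, since without it the log2 fold change was -0.61 and the adjusted p 0.0166 in limma-voom, whereas without AG636 sample 4 they were -0.17 and 0.503. Snhg8 was at 289, 247, 263 and 261 CPM in Vehicle samples and at 306, 400, 335 and 203 CPM in AG636 samples (0.19 ± 0.17, adjusted p = 0.492), and was called higher when AG636 sample 4 was left out.

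Snhg3 and Snhg5, named after their values were seen, came next to the threshold. Snhg5 was at 79.7, 88.5, 98.0 and 98.0 CPM in Vehicle samples and at 77.0, 82.5, 32.7 and 26.7 CPM in AG636 samples. Samples 3 and 4 of the AG636 group were well below every Vehicle sample and samples 1 and 2 were at or near its lower end (log2 fold change -0.91 ± 0.31 SE, adjusted p = 0.0736). Snhg3 was at 186, 139, 160 and 168 CPM in Vehicle samples and at 129, 156, 105 and 85.3 CPM in AG636 samples (-0.49 ± 0.17, adjusted p = 0.0752). Snhg3 shares 135 exon bases with Rcc1 on the same strand, so its counts may be divided between them. Both Snhg3 and Snhg5 passed the threshold without AG636 sample 2 and with sample quality weights.

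Of the 12 host genes tested 10 had a log2 fold change below 0, with a median of -0.25, and 1 of 12 was called lower, against 8.49% of all genes. At an unadjusted p under 0.05 in limma-voom 4 of the 12 were lower and 0 higher. AG636 sample 4 was the lowest of the 8 samples in 9 of the 12, and AG636 sample 2 the highest in 4. Without AG636 sample 4 only 6 of 12 were below 0 and the median was -0.086, so that the direction of the group rested largely on that sample. The summed host level was 2263 ± 63.1 CPM in Vehicle and 1853 ± 532 CPM in AG636 samples (SD, n = 4 each), where the spread among AG636 samples exceeded the difference between means. The sum was 2536 CPM in AG636 sample 2 and 1242 CPM in AG636 sample 4. In AG636 samples 1 to 4 the host sums were 1878, 2536, 1758 and 1242 CPM and the sums of progenitor markers 913, 954, 761 and 649 CPM, so that both had the same order over the AG636 samples. In Vehicle samples 1 to 4 the host sums were 2316.9, 2195, 2316.5 and 2223 CPM. The progenitor sums there were 571, 708, 623 and 639 CPM, in the reverse order of the host sums. In AG636 samples 1 to 4 mature myeloid markers summed to 14.8, 162, 20.7 and 204 CPM and erythroid markers to 4667, 5163, 5166 and 6159 CPM, the latter highest in AG636 sample 4, which was lowest in host genes. The part of cell composition in the spread of host genes was not tested.

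**Figure D4:**
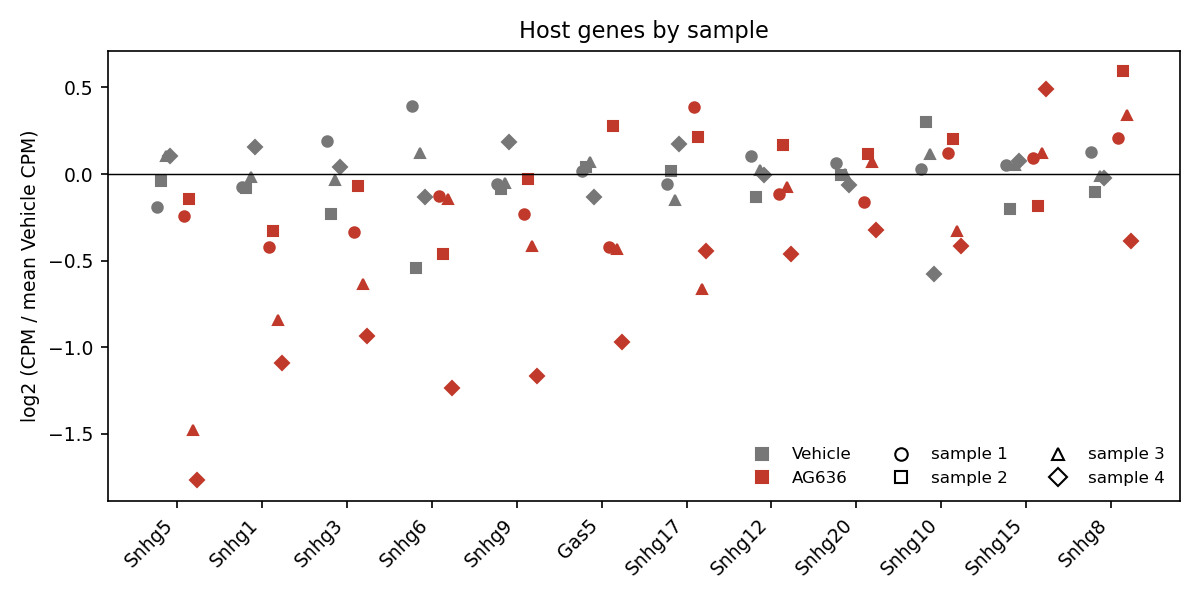
Log2 of CPM over the mean Vehicle CPM (vertical axis) in each Vehicle (gray) and AG636 (red) sample for the 12 host genes tested, ordered by log2 fold change, with a marker shape per sample number. AG636 sample 4 (red diamonds) is the lowest of the 8 samples in 9 of the 12 genes, and all AG636 samples lie below all Vehicle samples for Snhg1 alone.

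Gas5 and several Snhg transcripts are known as TOP transcripts, which begin with a C followed by an unbroken run of C and T and whose translation depends on nutrient and growth signals. RefSeq windows around annotated starts (GRCm38.p6) were read for 12 host members, among them the untested Snhg14 and without Snhg6. Snhg12 and Snhg17 each had a start with a run of 6 pyrimidines that begins with T, which was not counted. A start with C and at least 5 pyrimidines in a row counted from it was found in 2 of the 12, against 3.01% of 27025 genes. These were Gas5 at the second of its annotated starts and Snhg8, neither of which was called, while the run at the start of Snhg1 was 3 bases. The 30 bases from 10 before to 20 after each start are given, with the run in capitals, Gas5 on the plus strand of chromosome 1, Snhg8 on the minus strand of chromosome 3 and Snhg1 on the plus strand of chromosome 19.
Gas5: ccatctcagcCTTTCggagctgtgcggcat
Snhg8: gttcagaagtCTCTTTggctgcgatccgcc
Snhg1: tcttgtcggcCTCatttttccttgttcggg

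The messages of the proteins that package and mature these RNAs were also examined, as lists. Of 12 tested genes for box C/D core proteins and assembly factors 7 were called lower and 0 higher, with a median log2 fold change of -0.40 (7 and 0 also by edgeR and by DESeq2). They included Fbl, the methyltransferase fibrillarin, from 250 to 165 CPM (-0.60 ± 0.09 SE, adjusted p = 0.00339, limma-voom) and Snu13 from 286 to 185 CPM (-0.63 ± 0.08, adjusted p = 0.00218, limma-voom). Of 6 tested box H/ACA genes 5 were called lower by each tool, with a median of -0.66. Dkc1, the pseudouridine synthase dyskerin, went from 392.3 to 222 CPM (-0.83 ± 0.10, adjusted p = 0.00179, limma-voom) and Nhp2 from 81.5 to 43.4 CPM (-0.92 ± 0.12, adjusted p = 0.00195, limma-voom). These counts stand beside 8.49% of all genes called lower.

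The list for trimming of the 3′ end and capping had 6 of 12 tested genes called lower and 0 higher, again beside 8.49% of all genes called lower. Tgs1, which makes the trimethylguanosine cap of RNAs such as U8 and U13, went from 142 to 113 CPM (log2 fold change -0.33 ± 0.09 SE, adjusted p = 0.0378, limma-voom), and Phax, the adaptor for their transport to Cajal bodies, from 73.1 to 57.5 CPM (-0.35 ± 0.09, adjusted p = 0.0357, limma-voom). Toe1, a deadenylase that trims small RNA ends, fell by 0.55 (SE 0.11, adjusted p = 0.0115, limma-voom), and both cap-binding genes Ncbp1 and Ncbp2 were called lower. Of 6 tested genes of Cajal body and nucleolar traffic 2 were called lower, Nolc1 (-0.87 ± 0.13, adjusted p = 0.00312) and Tcof1 (-0.34 ± 0.09, adjusted p = 0.0376). Of 15 genes of nonsense-mediated decay 1 was called lower (Magoh, -0.36 ± 0.10, adjusted p = 0.0377) and 0 higher, a share no greater than the 8.49% of all genes. At an unadjusted p under 0.05 in limma-voom 5 of these 15 were lower and 0 higher.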

How the data were processed

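RNA was sequenced from sorted RUNX1-RUNX1T1 AML cells in 4 Vehicle and 4 AG636 samples. The authors deposited raw counts of reads for each gene. They prepared QuantSeq 3′ mRNA libraries, which are primed on poly-A, trimmed reads with cutadapt, mapped them to mm10 with HISAT2 2.0.4 and counted them with featureCounts. The submitters' processing notes name cutadapt 1.9.1 and Subread 1.5.0-p3, and the methods of the study name other versions of both. The handling of strand, multiply mapped reads and overlapping genes was not stated. The depth was 6120030 to 7162036 counts per sample, and the precision of low members is set by their counts.

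Samples were grouped by title. Genes passing filterByExpr (minimum count 10) were compared with TMM factors by voom in limma 3.58.1 (R 4.3.3, with edgeR 4.0.16 for filter and scaling) and group as the only term, two-sided, with Benjamini-Hochberg adjustment over all genes tested and a threshold of 0.05. A called gene has an adjusted p under that threshold. In simulated data 196 of the 10790 genes tested were changed, all by the same size, which was larger than the change of most tested members. Of these 67.3% were called in the right direction and 3.65% of calls were false. The share called does not hold for smaller changes. Hosts were genes whose span holds a small RNA on the same strand. Ratios of small RNA to host (log2 CPM, prior count 2) were tested by exact permutation. The alternatives were edgeR, DESeq2 (1.42.0), limma-trend, sample weights, other scaling factors, other filters, the replicate block and samples left out.

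The members and lists were chosen with earlier results of these data known, and Snord13 and Gas5 had been named as leading members. Named members were those called, Snord13, Gas5, small RNAs in no gene of their own strand with at least 50 counts, and the 3 with the highest mean CPM in each class. Other genes were named if called, as a host in a described pair, or as 1 of the 3 with the smallest p-values of a list. Rnu11, which had the most counts of its list, was named outside this rule. A further 1409 rows of snoRNA or scaRNA type carry other symbols, 51 of them with at least 10 counts, and were not used here. The sequence of Snord13 and the values of 1 host gene are not reported here.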

Additional observations from a re-analysis of the deposited data

Results flagged for a closer look

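Dixon's test for a single distant sample in a group of 4 was applied to 72 combinations of a member or class and a group. It marked 7, where chance alone gives about 1 in 20, or 3.6. Among small RNAs, Scarna17 was at 2.26 on the log2 CPM scale in AG636 sample 4 against 2.96 to 3.05 in the other AG636 samples, although that sample was still above all Vehicle samples. Snora57 was at 2.31 in AG636 sample 1 against 3.58 to 3.74 in the others, and the same sample had a summed box H/ACA level of 12.1 CPM against 25.4 to 26.7 CPM. Snord65 was at 0.92 in AG636 sample 4 against 2.30 to 2.52, and Snord55 at 0.93 in Vehicle sample 1 against 1.47 to 1.53. Among host genes, Snhg15 was at 4.90 in Vehicle sample 2 against 5.15 to 5.17, and Snhg9 at 7.18 in Vehicle sample 4 against 6.91 to 6.95.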

How the results depend on the processing

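Of 589 values recomputed under the alternatives 545 kept their direction and side of the threshold, or moved by less than the spread between samples. The number of members called was 4 in the fit reported, 7 with sample quality weights, which added Snord118, Snhg3 and Snhg5, and 1 at an adjusted p under 0.01, where 435 genes were called in all. It ranged from 2 to 6 with 1 sample left out, over which all calls ranged from 688 to 1706, and was 2 (Scarna17 and Snord13) without Vehicle sample 4 and AG636 sample 3 together, an alternative chosen after seeing the data. With library size alone 61.7% of all calls were higher in AG636, against 39.2% with TMM factors, and the median log2 fold change of all genes was 0.064, while 10 of 12 host genes stayed below 0. With 1 sample left out Snord55 reached -0.0080 (to 0.31), Snora57 0.025 (from -0.46) and Snord87 0.20 (from -0.37), which reversed their sign. Same-numbered samples correlated from -0.14 to 0.20 in their deviations from the group means, so they share only a number. With the replicate block 4 members were called, with Snord118 in place of Scarna2, and 13.3% of all genes. For the ratio pairs 0 passed in any alternative with a test, a result that the few relabellings made likely in advance. Leaving out a sample cannot reach the threshold there. Depth limits the low members, since 25 of 52 could not be tested.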
